A study of Rattus rattus with 18 samples.

Results

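In all, 4 microRNAs (miRNAs) were followed in rat brain after transient middle cerebral artery occlusion (tMCAO), namely rno-miR-26a-5p, rno-miR-26b-5p, rno-miR-101a-3p and rno-miR-101b-3p (the species prefix is left out from here on). They were chosen by name, as the guide arms of the miR-26 and miR-101 families that have been described as repressors of Ezh2, and the rule itself uses no measured value. All 4 were among the 761 miRNAs on the array and all 4 passed the filter on low values, as did 532 miRNAs in all. The arrays came from 9 Sprague Dawley rats, of which 3 were sham-operated, 3 underwent tMCAO, in which a filament closes the artery for a time and is then withdrawn, and 3 carried the label remote limb postconditioning (PostC). The labels do not say whether the PostC rats also underwent tMCAO, and the age is not given in the sources used here. The study's methods name more than one time of sacrifice after reperfusion for the transient model and do not tie one to these arrays. From each rat the ischemic core and the surrounding tissue (peri) were hybridised to an array of their own, which made 6 groups of 3 arrays. The labels name temporo-parietal cortex for core and striatum for peri, whereas the study's text gives the tissues the other way round, so the regions are called core and peri here without a tissue.

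A miRNA guides a silencing complex to messenger RNAs that pair with its seed, the bases near its 5′ end. Ezh2 is the enzyme of Polycomb repressive complex 2 that methylates lysine 27 of histone H3, a mark of silenced genes, and both families are known to pair with its messenger RNA. In brain, miR-26 is known to become more abundant as neurons differentiate. The array measured miRNAs only, so the level of Ezh2 itself was not part of these data.

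The mature sequences, as the array's probe list gives them, show why the 4 fall into 2 pairs. Capitals mark the seed, bases 2 to 8 counted from the 5′ end.
miR-26a-5p: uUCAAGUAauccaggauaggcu
miR-26b-5p: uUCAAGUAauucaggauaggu
miR-101a-3p: uACAGUACugugauaacugaa
miR-101b-3p: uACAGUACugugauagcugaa
On the array each seed was shared by 1 other miRNA, the partner in the same family. miR-26a-5p and miR-26b-5p differed by C11U and C21U (the base of miR-26a-5p first) and by length, 22 against 21 bases. miR-101a-3p and miR-101b-3p differed by A16G alone (the base of miR-101a-3p first). The next nearest sequence on the array was 6 or more edits from any of the 4. How far the probe of one partner also bound the other was not tested, so the values within a pair are uncertain to that extent.

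Levels are given as normalized log2 intensity, 1 unit being a doubling relative to the other miRNAs on the arrays, and the error is the SD over 3 rats. Detection on an array required a median spot brighter than the array's empty spots by a margin of 3 scaled median absolute deviations. The arrays detected between 188 and 605 miRNAs each, with 336 to 509 in sham core, 233 to 447 in tMCAO core and 198 to 605 in PostC core. Of 8 miRNAs known from neurons, 8 were detected on every array of core in all treatments. miR-26a-5p was detected on 18 of 18 arrays and the other members on 17 each. miR-101a-3p and miR-101b-3p were below the limit in PostC core of rat 1, and miR-26b-5p in PostC peri of rat 3. On both arrays the empty spots had a higher median than the miRNA spots, at 96.5 against 60.6 and 124.7 against 99.4 raw units. This was also so for PostC core of rat 2 and tMCAO core and peri of rat 3, but for no sham array. With the limit taken from dim miRNA spots, every member was detected on 18 of 18 arrays. Detections given here thus depend on a limit that differed between arrays, and its part in differences between treatments was not tested. The other arms of the same hairpins, miR-26a-3p, miR-26b-3p, miR-101a-5p and miR-101b-5p, were detected on 2, 1, 1 and 0 arrays, and none of them could be tested. The labels call the rats biological replicates, and the precision is limited by the 3 arrays in each group.

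miR-101a-3p had its highest mean level in the core of sham-operated rats and its lowest in the core of PostC rats. In sham core the 3 arrays read 11.16, 11.70 and 11.45, a mean of 11.43 ± 0.27. In tMCAO core they read 9.89, 8.32 and 9.94, a mean of 9.38 ± 0.92. In PostC core they read 8.08, 9.74 and 9.53, a mean of 9.12 ± 0.90. Every core array of tMCAO and PostC thus lay below every sham core array. In peri the sham arrays read 10.98, 10.04 and 8.86, the tMCAO arrays 9.32, 9.93 and 10.01, and the PostC arrays 10.68, 9.45 and 11.28. The 3 treatments overlapped there. In order of the mean, sham core was followed by PostC peri (10.47), sham peri (9.96), tMCAO peri (9.75), tMCAO core and PostC core, and the arrays of each neighbouring pair in that order overlapped. The authors' own normalized intensities, on a linear scale, gave 2643 ± 435 in sham core, 661 ± 383 in tMCAO core and 548 ± 372 in PostC core.

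miR-101b-3p had the same groups at the top and the bottom. The sham core arrays read 10.65, 10.93 and 10.21, a mean of 10.60 ± 0.36, and the tMCAO core arrays 9.57, 8.84 and 9.70, a mean of 9.37 ± 0.46. The PostC core arrays read 8.25, 9.55 and 8.03, a mean of 8.61 ± 0.82. As for its partner, no core array of tMCAO or PostC reached the sham core arrays. In peri the means were 9.84 ± 0.31 in sham, 10.01 ± 0.12 in tMCAO and 10.26 ± 1.16 in PostC, and the arrays overlapped. The PostC peri array of rat 3 stood highest of the 18 at 11.58, while the other arrays of its group read 9.79 and 9.40. The order of the means was sham core, PostC peri, tMCAO peri, sham peri, tMCAO core and PostC core, with overlap between all neighbours.

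miR-26a-5p varied little. Over the 18 arrays it ranged from 14.00 to 15.17, with an SD of 0.24, and its raw median spot was between 18079 and 38289 units. It was among the brightest miRNAs, at places 1 to 9 of 761 on each array. Whether its brightness narrowed the spread was not tested. The sham core arrays read 14.42, 14.27 and 14.53, the tMCAO core arrays 14.74, 14.47 and 14.53, and the PostC core arrays 14.42, 14.45 and 14.41. In core both treatments overlapped sham, but every tMCAO array lay above every PostC array. In peri the sham arrays read 14.51, 14.66 and 14.38, the tMCAO arrays 15.17, 14.74 and 14.65, and the PostC arrays 14.51, 14.53 and 14.00. The highest mean was that of tMCAO peri (14.86 ± 0.28) and the lowest that of PostC peri (14.35 ± 0.30), with tMCAO core (14.58), sham peri (14.52), PostC core (14.42) and sham core (14.41) between them. Neighbours in that order overlapped throughout.

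miR-26b-5p varied most among the 4, with an SD of 1.14 over the 18 arrays, and the spread lay largely within groups. In sham core the arrays read 10.23, 13.71 and 11.30, a mean of 11.75 ± 1.78. The array of rat 2 stood far above the rest of its group, and the 4 spots of the probe on it agreed, between 11669 and 15881 raw units. The same array held the highest summed level of the 2 oligodendrocyte miRNAs, miR-219a-5p and miR-338-3p, at 12550 units of intensity, against 1936 and 2187 on the other sham core arrays. The part of that difference in the level of miR-26b-5p was not tested. In tMCAO core miR-26b-5p read 10.99, 9.12 and 10.76, and in PostC core 10.80, 11.36 and 11.77. The peri arrays read 10.53, 11.03 and 10.43 in sham, 9.27, 10.62 and 9.97 in tMCAO, and 11.69, 11.09 and 8.57 in PostC. In order of the mean the groups were sham core, PostC core (11.31), sham peri (10.66), PostC peri (10.45), tMCAO core (10.29) and tMCAO peri (9.95), and all neighbours overlapped.

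**Figure D1:**
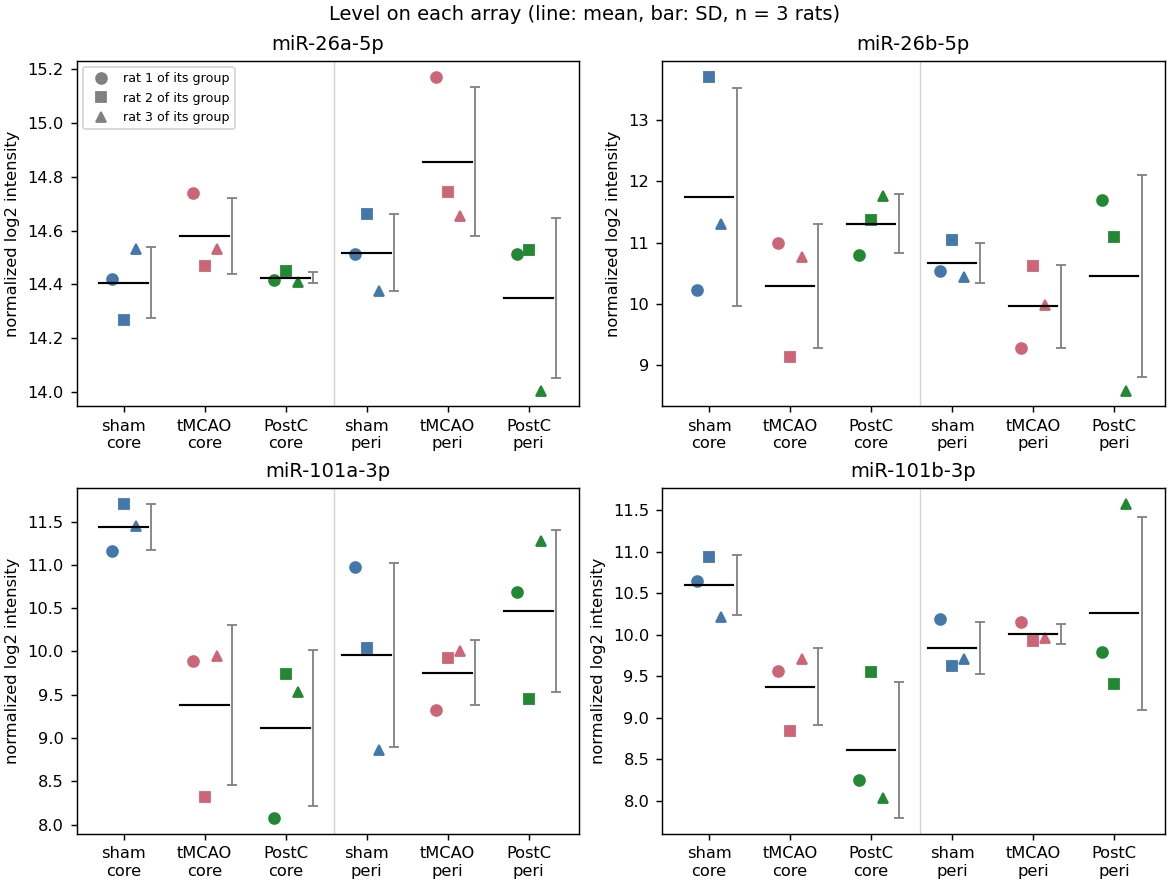
Normalized log2 intensity (vertical axis, 1 panel per miRNA, each with its own range) on every array, by treatment and region; each point is 1 rat, the line is the mean and the grey bar the SD of 3 rats. In core the sham arrays of miR-101a-3p (11.16 to 11.70) and of miR-101b-3p (10.21 to 10.93) lie above all tMCAO and PostC arrays, whereas 1 sham core array of miR-26b-5p stands apart at 13.71.

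The comparison of tMCAO with sham asks which miRNAs differ after ischemia, and was made first on rat means, the average of a rat's core and peri arrays. With limma and Benjamini-Hochberg adjustment at 0.05 over the 532 miRNAs, 0 of the 4 members passed, against 11.8% of all miRNAs tested (63). At an unadjusted p under 0.05 there were 2 of 4 members, miR-101a-3p and miR-26b-5p, against 31.4% of all. The rat means of miR-101a-3p were 11.07, 10.87 and 10.16 in sham and 9.61, 9.12 and 9.98 in tMCAO. The log2 difference was -1.13 (95% confidence interval -1.93 to -0.33, SE 0.36, limma, adjusted p = 0.0668), a level 2.19-fold lower. The study had itself listed miR-101a-3p among miRNAs that it picked on these arrays, so its direction here is not independent evidence. For miR-101b-3p the rat means were 10.42, 10.28 and 9.96 in sham against 9.86, 9.38 and 9.83 in tMCAO, a log2 difference of -0.53 (SE 0.28, limma, adjusted p = 0.215).

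The miR-26 pair gave differences of opposite sign in the rat means. miR-26a-5p read 14.47, 14.46 and 14.45 in the sham rats and 14.96, 14.60 and 14.59 in the tMCAO rats, a log2 difference of 0.26 (SE 0.13, limma, adjusted p = 0.215). The SD of the sham rat means was 0.0066, although the sham arrays themselves had an SD of 0.13 in core and 0.14 in peri. miR-26b-5p read 10.38, 12.37 and 10.86 against 10.13, 9.87 and 10.36, a log2 difference of -1.09 (SE 0.48, limma, adjusted p = 0.149). Without sham rat 2 this became -0.50. The sham and tMCAO rats did not overlap for any of the 4 members, but 41.0% of all miRNAs tested did not overlap either. The median log2 difference was -0.81 over the 4 members and -0.02 over all miRNAs tested, and without sham rat 2 it was -0.50 over the members. Results for the rat means turned on the scaling: with each array scaled to its median, miR-101a-3p, miR-101b-3p and miR-26b-5p passed the threshold, as did 23.5% of all miRNAs tested, and the median over all miRNAs itself moved by -0.18. After plain subtraction of the empty spots the difference of miR-26a-5p was -0.20, and thus of the other sign.

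In core alone the differences of both miR-101 miRNAs were larger. For miR-101a-3p the log2 difference between tMCAO and sham was -2.05 (95% confidence interval -3.32 to -0.78, SE 0.57, limma, adjusted p = 0.0970), a level 4.14-fold lower. For miR-101b-3p it was -1.23 (95% confidence interval -2.31 to -0.14, SE 0.49, limma, adjusted p = 0.175). Neither passed, and in core 3.38% of all miRNAs tested did. Both stood without overlap between the groups, as did 41.0% of all. miR-101a-3p passed in core when only the tMCAO and sham rats entered the fit (limma, adjusted p = 0.0446, with 7.52% of all miRNAs passing). It also passed when PostC rat 1 was left out of the shared estimate of the spread (limma, adjusted p = 0.0450, with 4.32% passing). For miR-26a-5p the log2 difference in core was 0.17 (SE 0.14), and for miR-26b-5p it was -1.46 (SE 0.81), which became -0.48 without sham rat 2. The median over the 4 members in core was -1.34, and over all miRNAs tested -0.05. Without sham rat 2 the median over the members was -0.77.

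No member passed for tMCAO against sham in peri. The log2 difference was -0.21 (SE 0.56) for miR-101a-3p and 0.17 (SE 0.49) for miR-101b-3p. It was 0.34 (SE 0.20) for miR-26a-5p and -0.71 (SE 0.66) for miR-26b-5p. The adjusted p-values from limma were between 0.457 and 0.899, 0 of 4 members passed against 0.564% of all miRNAs tested, and the groups overlapped for all 4, while 31.6% of all miRNAs had no overlap. The 95% confidence interval of miR-101a-3p, -1.42 to 1.00, still held a halving or a doubling. With median scaling miR-101b-3p (-1.01) and miR-26a-5p (-0.22) took the other sign in peri, and the differences of miR-101a-3p (-1.38, limma, adjusted p = 0.0669) and miR-26b-5p (-1.81, limma, adjusted p = 0.0709) were larger. The median over all miRNAs itself moved by -0.39 there.

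Whether tMCAO acted differently on core and peri was tested on the difference between the 2 arrays of each rat. In the sham rats miR-101a-3p was higher in core than in peri by 0.18, 1.66 and 2.59, that is in 3 of 3 rats. In the tMCAO rats the core minus peri values were 0.57, -1.61 and -0.07. The change in core minus the change in peri was -1.84 (95% confidence interval -3.82 to 0.14, SE 0.88, limma, adjusted p = 0.575). miR-101b-3p was higher in core by 0.46, 1.32 and 0.51 in the sham rats and lower in core by 0.58, 1.07 and 0.25 in the tMCAO rats, so the groups did not overlap. Its difference of changes was -1.40 (SE 0.80, limma, adjusted p = 0.652), and 28.9% of all miRNAs tested had no overlap in this measure. For miR-26a-5p and miR-26b-5p the difference of changes was -0.16 (SE 0.27) and -0.75 (SE 1.23). With median scaling the difference of changes was smaller for the miR-101 miRNAs, at -0.87 for miR-101a-3p and -0.45 for miR-101b-3p. None of the 4 members passed, as none of the 532 miRNAs did with limma, and 46 of the 532 had an unadjusted p under 0.05. The 2 oligodendrocyte miRNAs were read beside the miR-101 miRNAs. In the sham rats core exceeded peri by 0.56, 3.37 and 1.89 for miR-219a-5p and by 1.02, 2.78 and 2.77 for miR-338-3p, the miRNAs at places 2 and 3 of the 532 by p-value (limma, adjusted p = 0.628 for both). In the tMCAO rats the core minus peri values of miR-338-3p were 0.22, -1.20 and 0.11, without overlap with sham, and its difference of changes was -2.48 (SE 0.82, limma, adjusted p = 0.425). miR-219a-5p was not detected on any tMCAO array, so its difference of changes is not given. The part of oligodendrocytes in the regional values of the miR-101 miRNAs was not tested.

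Within single treatments no member passed the test of core against peri either. A higher core in 3 of 3 sham rats, as seen for both miR-101 miRNAs, was found for 21.8% of all miRNAs tested. A lower core in 3 of 3 tMCAO rats, as seen for miR-101b-3p and miR-26a-5p, was found for 24.6%. In the PostC rats the core minus peri values of miR-101a-3p were -2.60, 0.29 and -1.75, and those of miR-101b-3p were -1.53, 0.14 and -3.54. Core was lower in 2 of 3 PostC rats for both. The lowest adjusted p of a member was 0.837 in sham, 0.688 in tMCAO and 0.399 in PostC (limma), where 0, 0.94% and 0 of all miRNAs tested passed. Without PostC rat 2, the one with a higher core, miR-101b-3p passed in the PostC rats (limma, adjusted p = 0.0346), as did 3.38% of all miRNAs tested.

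**Figure D2:**
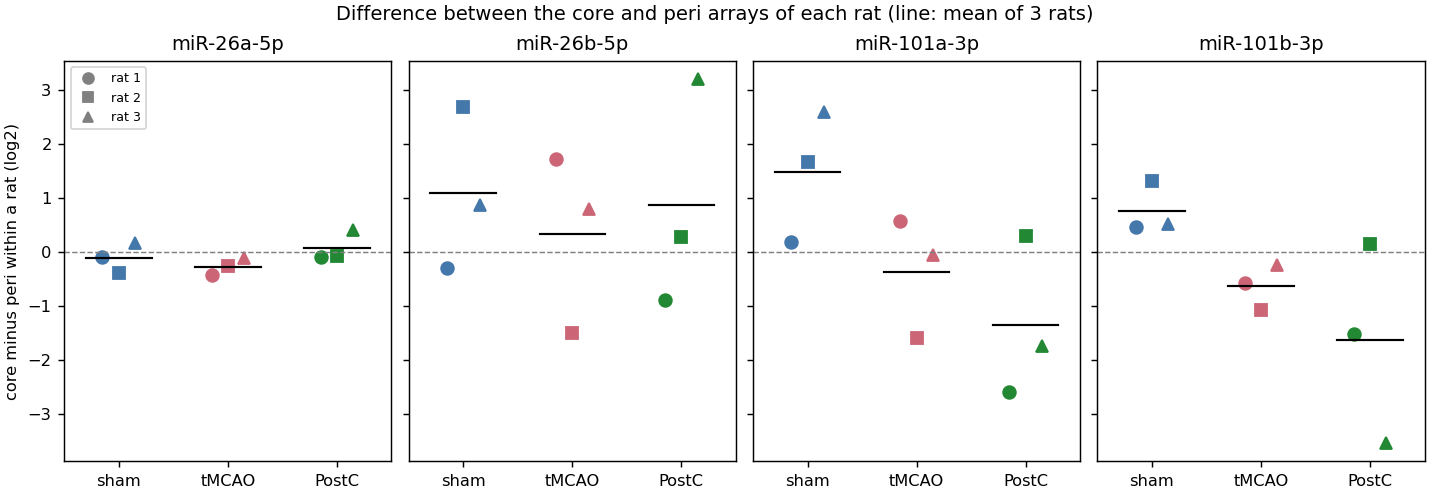
Core minus peri within each rat (vertical axis, log2 difference), by treatment and miRNA; each point is 1 rat and the line is the mean of 3. Both miR-101 miRNAs lie above 0 in all 3 sham rats, and miR-101b-3p lies below 0 in all 3 tMCAO rats, whereas miR-26b-5p spreads to both sides of 0 in every treatment.

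PostC was compared with the same sham arrays as tMCAO, so the 2 sets of differences share their controls. In core the log2 difference between PostC and sham was -2.32 for miR-101a-3p (95% confidence interval -3.59 to -1.04, SE 0.57, limma, adjusted p = 0.0909). It was -1.99 for miR-101b-3p (95% confidence interval -3.07 to -0.90, SE 0.49, limma, adjusted p = 0.0909). By p-value they held places 13 and 12 of the 532 miRNAs, and with limma no miRNA passed in this comparison, while 90 had an unadjusted p under 0.05. Neither group overlapped sham, against 22.0% of all miRNAs tested. Without PostC rat 2 the difference of miR-101b-3p was -2.45 and passed (limma, adjusted p = 0.0398), as did 1.5% of all miRNAs tested. The core differences were 0.02 (SE 0.14) for miR-26a-5p and -0.44 (SE 0.81) for miR-26b-5p, and the arrays overlapped. The median over the members in PostC core was -1.21, and over all miRNAs tested 0.06.

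In peri, PostC and sham overlapped for all 4 members, whereas 5.08% of all miRNAs tested had no overlap. The log2 differences were 0.51 (SE 0.56) for miR-101a-3p, 0.42 (SE 0.49) for miR-101b-3p, -0.17 (SE 0.20) for miR-26a-5p and -0.21 (SE 0.66) for miR-26b-5p. The adjusted p was 0.991 for each (limma), and 0 of the 532 miRNAs passed, with 14 at an unadjusted p under 0.05. With median scaling both miR-101 differences took the other sign, at -0.09 and -0.18. In the rat means the differences were -0.90 (SE 0.36) for miR-101a-3p, -0.79 (SE 0.28) for miR-101b-3p, -0.08 (SE 0.13) for miR-26a-5p and -0.33 (SE 0.48) for miR-26b-5p. The lowest adjusted p among them was 0.289 (limma), and 0.188% of all miRNAs tested passed. miR-101b-3p alone among the 4 did not overlap between PostC and sham in the rat means, against 18.2% of all.

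**Figure D3:**
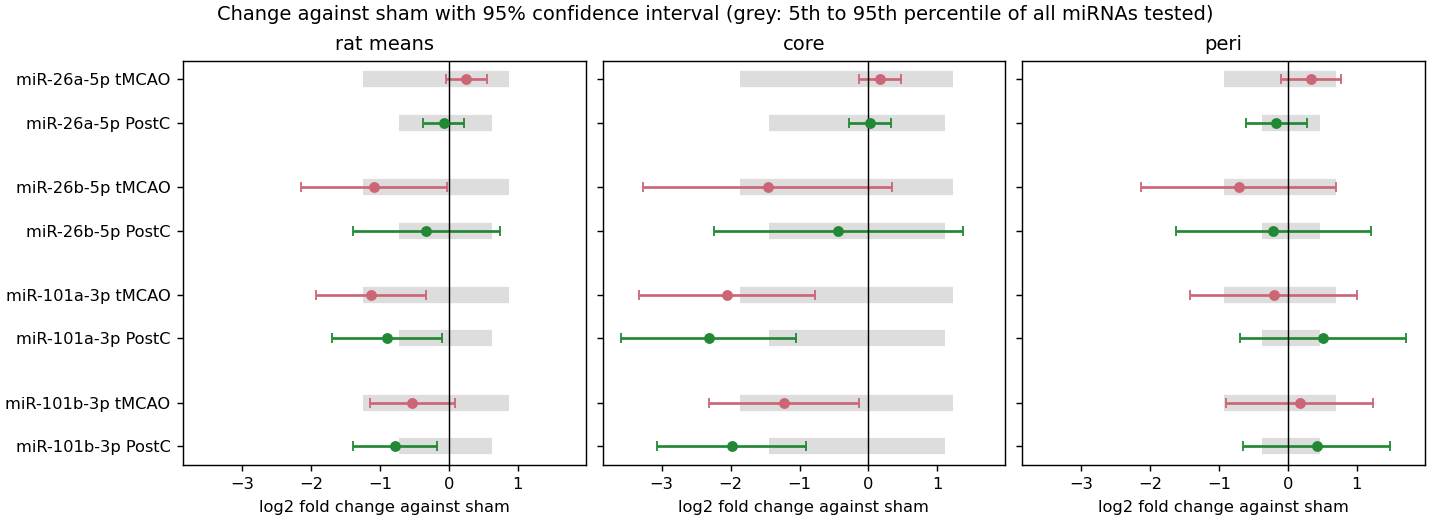
Log2 fold change against sham (horizontal axis) of each member in tMCAO and PostC rats, from left to right for rat means, core and peri; points are limma estimates, bars their 95% confidence intervals, and grey bands the span from the 5th to the 95th percentile of the 532 miRNAs tested. In core both estimates of miR-101a-3p (-2.05 and -2.32) and the PostC estimate of miR-101b-3p (-1.99) lie left of the band, and the intervals of both miR-101 miRNAs lie below 0, although no adjusted p passed.

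PostC and tMCAO were also compared with each other. miR-26a-5p was the one member whose groups did not overlap, with every PostC rat below every tMCAO rat in core and peri alike and in their average. Such a separation was found for 18.6%, 7.89% and 26.1% of all miRNAs tested. Its adjusted p was 0.726 in core, 0.725 in peri and 0.212 in the rat means (limma). For the other members the arrays overlapped in all 3, with adjusted p-values of 0.468 or more. Among all miRNAs tested, 2.26% passed in core, 0 in peri and 5.64% in the rat means. Without PostC rat 3, whose peri array held the lowest level of miR-26b-5p on any array (8.57), miR-26b-5p passed in peri, at a log2 difference of 1.44 (limma, adjusted p = 0.0416), as did 11.1% of all miRNAs tested.

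Other cell types were followed through miRNAs known to be abundant in them, since in bulk tissue fewer cells of a type and less RNA per cell cannot be told apart. The summed level of the 8 neuronal miRNAs was 105016 to 108968 units of intensity in sham core, 85290 to 109744 in tMCAO core and 96710 to 109106 in PostC core. Its members differed among themselves. In the rat means after tMCAO 4 of the 8 were higher and 4 lower, with a median of 0.02, and 3 of the 8 passed, against 11.8% of all miRNAs tested. All 3 fell, namely miR-218a-5p by 2.23 (SE 0.35, limma, adjusted p = 0.00555), miR-153-3p by 1.35 (SE 0.38, limma, adjusted p = 0.0452) and miR-9a-5p by 1.2 (SE 0.32, limma, adjusted p = 0.0350). The call of miR-218a-5p held whichever rat was left out. The study had picked miR-218a-5p on these arrays, so its direction is not independent evidence. That of miR-153-3p ended without any one of the sham rats, tMCAO rat 1 or 2 or PostC rat 1, and that of miR-9a-5p without sham rat 2 or 3, tMCAO rat 1 or 2 or PostC rat 1 or 2. In tMCAO core the log2 differences of miR-153-3p, miR-218a-5p and miR-9a-5p were -2.89 (SE 0.86), -1.93 (SE 0.75) and -1.89 (SE 0.54), each without overlap with sham. Others of the list went the other way there, miR-128-3p by 0.34 (SE 0.14), also without overlap but with the other sign after plain subtraction of the empty spots, and miR-129-2-3p by 0.76 (SE 0.40). In all, 4 of the 8 were higher and 4 lower in tMCAO core, with a median of -0.04. Non-overlap was seen for 4 of the 8, against 41.0% of all miRNAs tested, and none of the 8 passed.

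The 6 leukocyte miRNAs summed to 3297 to 4031 in sham core, 7592 to 12363 in tMCAO core and 5968 to 8372 in PostC core. miR-150-5p alone made up 63.4% to 77.5% of that sum in sham core, 76.6% to 85.2% in tMCAO core and 75.1% to 80.5% in PostC core. Of the 6, 5 could be tested. In tMCAO core 4 of the 5 were higher and 1 lower than in sham, and 2 passed as higher, against 3.38% of all miRNAs tested. The first was miR-150-5p, by 1.55 (SE 0.31, limma, adjusted p = 0.0318). The other was miR-155-5p (limma, adjusted p = 0.0318), for which no fold is given because it was not detected on any sham array. miR-155-5p met the filter only through 2 tMCAO core arrays and 1 PostC core array. Its call is thus not independent of the filter, and the count of 2 includes it. In the rat means miR-150-5p passed as higher (limma, adjusted p = 0.0298), and so did miR-155-5p under the same limit (limma, adjusted p = 0.0126). The study had picked miR-150-5p on these arrays as well. Leaving out any one of sham rats 1 to 3 and tMCAO rats 1 and 2 ended both core calls, and tMCAO rat 3 that of miR-155-5p. In the rat means the call of miR-150-5p ended without sham rat 1 or 2, tMCAO rat 1 or 2 or PostC rat 2, and that of miR-155-5p without tMCAO rat 2. miR-142-3p and miR-142-5p, which mark blood cells most specifically, read lower in tMCAO core than in sham core, at low signals. They were detected on 1 and 2 of the 3 sham core arrays and on no tMCAO core array, and in PostC core on 0 and 1. The detection limit itself was 49.1 to 161 raw units in sham core, 77.4 to 240 in tMCAO core and 83.0 to 566 in PostC core. The signal of miR-142-5p averaged 7.05 ± 0.42 on the sham core arrays against 6.59 ± 0.06 after tMCAO (limma, adjusted p = 0.401). The groups did not overlap, as for 41.0% of all miRNAs tested. Its highest sham core array read 7.54, and miR-142-3p could not be tested. By contrast miR-223-3p averaged 8.29 ± 1.21 in tMCAO core against 6.93 ± 0.55 in sham core. For miR-146a-5p the means were 10.11 ± 0.16 and 9.15 ± 0.10, and neither of these passed. The 2 oligodendrocyte miRNAs summed to 1936 to 12550 in sham core, 309 to 686 in tMCAO core and 302 to 1426 in PostC core, and miR-219a-5p was detected on no tMCAO core array. The 3 red blood cell miRNAs summed to 2421 to 4272, 2967 to 4179 and 1511 to 1792 in the same order. Of these, 2 could be tested, and miR-486 rose in the rat means (limma, adjusted p = 0.00951), a call that ended without tMCAO rat 2. No fold is given because it was not detected on any tMCAO peri array and reached detection on 1 of the 3 sham peri arrays, and in core it did not pass. The leukocyte sum was mostly miR-150-5p, and the oligodendrocyte sum mostly miR-338-3p (82.0% to 86.0% of it in sham core). Both sums separated sham core from tMCAO core and PostC core, as the levels of the miR-101 miRNAs did. Such a separation from sham was common, at 41.0% of all miRNAs tested for tMCAO core and 22.0% for PostC core. The neuronal list went both ways. The part of these cell types in the miR-101 levels was not tested.

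Across the 18 arrays the miR-101 partners varied together, with a Pearson r of 0.78, and of 0.63 after the group means were taken out. For the miR-26 partners r was -0.13, and 0.24 after the group means were taken out. These values describe arrays that share rats and treatments, and the partners may also share signal through their similar sequences. Over the same arrays the miRNAs most like miR-101a-3p were miR-29b-3p, miR-126a-3p and miR-16-5p, each at r = 0.87. Those most like miR-101b-3p were miR-301a-3p (0.94), miR-455-5p (0.94) and miR-337-3p (0.91), of which miR-455-5p was detected on 5 arrays only. For miR-26a-5p they were miR-128-3p (0.77), miR-132-3p (0.75) and miR-496-3p (0.56). For miR-26b-5p they were miR-204-5p (0.93), miR-382-3p (0.89) and miR-98-5p (0.88). On the sham core array of rat 2, where miR-26b-5p was highest, miR-204-5p and miR-98-5p were also higher than on any other array, at 12.00 and 11.82.

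**Figure D4:**
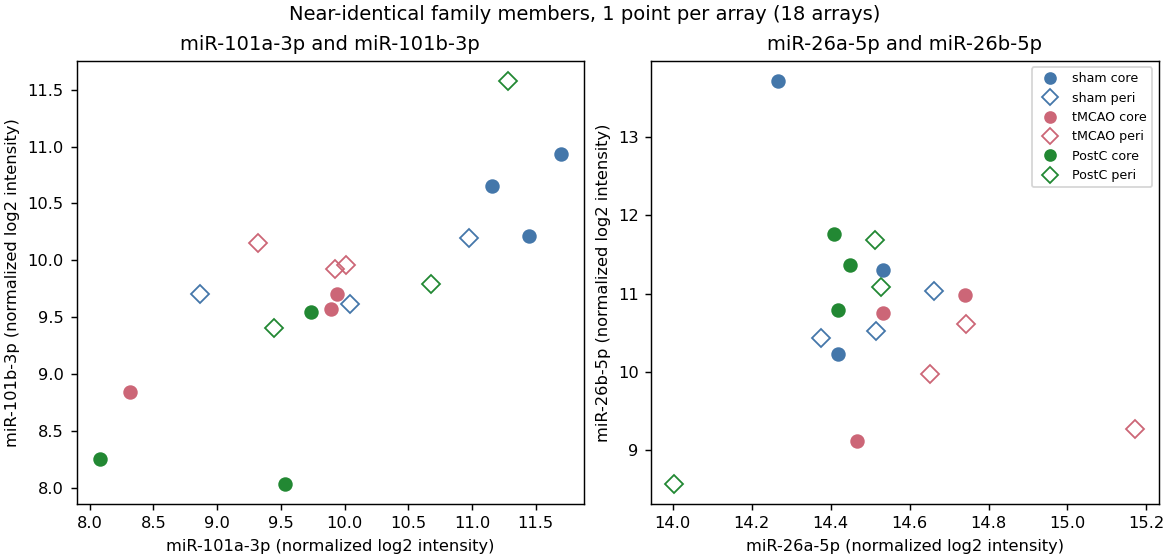
Normalized log2 intensity of the 2 members of each family against each other, 1 point per array (18 arrays), coloured by treatment and filled for core. The miR-101 points run along a rising line (r = 0.78), with the sham core arrays and the PostC peri array of rat 3 (11.28 and 11.58) at its upper end, whereas the miR-26 points show no such line (r = -0.13).

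A further 11 miRNAs known as regulators of Ezh2 or its complex were read beside the members, and 10 of the 11 could be tested. In the rat means, 2 rose after tMCAO, 1 fell and 7 did not pass, so that 3 of 10 passed against 11.8% of all miRNAs. The 2 that rose were let-7b-5p, by 0.79 (SE 0.18, limma, adjusted p = 0.0209), and let-7c-5p, by 0.71 (SE 0.18, limma, adjusted p = 0.0322), both of the let-7 family known for promoting differentiation. The study had picked both on these arrays, so their direction is not independent evidence. miR-137-3p, a miRNA of neurons, fell by 1.61 (SE 0.36, limma, adjusted p = 0.0184), the largest change of the list. The smallest difference was that of miR-124-3p, also a miRNA of neurons, at -0.01 (SE 0.13). In core let-7b-5p rose by 1.09 (SE 0.23, limma, adjusted p = 0.0354), and the other 9 did not pass. None passed in peri or in any comparison with PostC. The median log2 difference of the 10 was 0.12 in the rat means and 0.21 in core, against -0.81 and -1.34 for the 4 members. Leaving out single rats moved the medians of the 10 between 0.03 and 0.21 in the rat means and between 0.16 and 0.35 in core, and those of the members between -0.96 and -0.50 and between -1.69 and -0.77, with the values nearest to 0 of the members those without sham rat 2. The 2 let-7 calls in the rat means did not hold with median scaling or plain subtraction of the empty spots, although both stayed above 0. Leaving out sham rat 1 or 2 or tMCAO rat 1 or 2 ended both calls, and leaving out PostC rat 2 that of let-7c-5p. The call of miR-137-3p ended without sham rat 2 or tMCAO rat 2, and that of let-7b-5p in core without any one of the sham or tMCAO rats.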

How the data were processed

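MicroRNA levels were measured on 18 single-colour (Cy5) arrays, 1 of core and 1 of peri of each of 9 rats. The authors deposited, for each array, the intensity of each spot without background subtraction or normalization, and a series table whose intensities, linear in scale, had been background-subtracted and LOWESS-normalized. Per the labels, RNA was extracted with a miRNeasy kit, while the study's text names Trizol.

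Background was removed from the spot values by normexp (offset 50, fitted over all spots), the 18 arrays were then brought together by cyclic loess on log2 values, and the 4 spots of each of 761 miRNA probes were averaged. Control spots had weight 0. The detection limit per array was the median of 612 empty spots plus 3 scaled median absolute deviations. Probes reaching it on 3 or more arrays (532) entered tests with limma 3.58.1 in R 4.3.3 (lmFit, eBayes with trend), with the 3 groups sharing the spread, and adjusted by Benjamini-Hochberg at 0.05. The normalization makes each difference relative to the other miRNAs. The files carry no saturation flag, and array intensities give no counting error, so the number of arrays limits the precision. The fit was tested on simulated data. Figures were drawn with matplotlib 3.10.9 in Python 3.11.15.

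The miRNAs named are the 4 members, the other arms of their hairpins, a list of 11 Ezh2 regulators (those past the threshold and the largest and smallest change), lists of cell type miRNAs, and for each member the 3 miRNAs with the highest correlation over the arrays. The members and lists were chosen with earlier results of these data known. Alternatives were 2 other background corrections, quantile normalization, median scaling, removal of a GC trend, the deposited normalized intensities with a floor of 1 or 50, 3 other filters, no variance trend, only the groups compared, the replicate number as a block, a joint fit of core and peri arrays (rat as random block), the methods' t-test, and leaving out each rat. An exact permutation test of 3 against 3 rats has 0.1 as its smallest p. Genomic positions are not given, as no rat genome was used.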

Additional observations from a re-analysis of the deposited data

How the results depend on the processing

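The miR-101 differences of tMCAO and of PostC from sham in rat means and in core, and the difference of changes between regions for tMCAO, stayed below 0 in all 224 values computed under the alternatives, while calls depended on the setting. Many of these values could not differ from the main estimate. Alternatives that change only the filter or the test leave a difference as it is. So does leaving out a rat of a group not compared. Of the 4 members, 3 passed for tMCAO against sham in the rat means with median scaling (miR-101a-3p at -1.82, miR-101b-3p at -1.23, miR-26b-5p at -1.68), against 23.5% of all miRNAs, and 1 with the deposited intensities at a floor of 1 (miR-101a-3p at -1.31), against 23.7%. In core 1 passed with only the groups compared, against 7.52%. Leaving out single rats gave 0 to 1 members past the threshold in 5 comparisons, and in the fits with a member past it 1.5% to 18% of all miRNAs passed. For tMCAO against sham these were the rat means (miR-101a-3p, without tMCAO rat 3 or PostC rat 3) and core (miR-101a-3p, without PostC rat 1). The others were PostC against sham in core and core against peri in PostC (miR-101b-3p, without PostC rat 2), and PostC against tMCAO in peri (miR-26b-5p, without PostC rat 3). The rat mean difference of miR-101a-3p for tMCAO then ranged from -1.40 to -0.90. Over the alternatives other than leaving out a rat, it ranged from -1.82 to -0.87, and that of miR-101b-3p from -1.23 to -0.20.

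Differences that took the other sign were all among those that did not pass. For miR-26a-5p, plain subtraction of the empty spots gave, for tMCAO, -0.20 in the means over regions, -0.36 in core and -0.049 in peri, and -0.58 for PostC in core, where subtraction of the dimmest spots gave -0.024. Quantile normalization gave 0.024 and removal of the GC trend 0.010 for PostC in the rat means. Its difference of changes between regions was 0.53 with quantile normalization, 0.77 with median scaling and 0.024 with the deposited intensities at either floor. Median scaling also turned tMCAO in peri for miR-101b-3p (-1.01) and miR-26a-5p (-0.22), PostC in peri for miR-101a-3p (-0.090) and miR-101b-3p (-0.18), and the difference of changes of miR-26b-5p (0.25). For miR-128-3p plain subtraction of the empty spots gave -0.045 in the tMCAO rat means and -0.22 in core. For miR-124-3p, subtraction of the dimmest spots gave 0.034 and quantile normalization 0.017. Leaving out single rats moved tMCAO in peri for miR-101a-3p between -0.75 and 0.30, and the difference of changes of miR-26b-5p between -1.44 and 0.17. For PostC in the rat means the range was -0.13 to 0.015 for miR-26a-5p and -0.74 to 0.26 for miR-26b-5p. In PostC core it was -0.050 to 0.082 for miR-26a-5p and -1.20 to 0.54 for miR-26b-5p. In PostC peri it was -0.038 to 1.02 for miR-101a-3p, -0.24 to 0.84 for miR-101b-3p, -0.26 to 0.0029 for miR-26a-5p and -0.83 to 0.73 for miR-26b-5p. For miR-124-3p in the tMCAO rat means it was -0.081 to 0.051. The causes were not tested. With the filter for detection on all 18 arrays miR-26a-5p was the only member left. Of 15 alternatives other than leaving out a rat, the rat mean calls held in 11 for let-7b-5p, 10 for let-7c-5p and 12 for miR-137-3p, and the core call of let-7b-5p held in 6 of 14. For the neuronal miRNAs the rat mean calls held in 14 of 14 for miR-218a-5p, 9 of 15 for miR-153-3p and 11 of 15 for miR-9a-5p. For miR-150-5p they held in 11 of 15 (8 of 14 in core), for miR-155-5p in 14 of 14 (12 of 13 in core) and for miR-486 in 13 of 14. The calls of miR-155-5p stay tied to the filter, which it met only through core arrays of tMCAO and PostC rats.

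The replicate numbers name 9 different rats, and the deviations of same-numbered rats were correlated without a consistent sign (r between -0.45 and 0.44). With the replicate number as a block, 0 of the 4 members passed in any comparison, and miR-101a-3p had an adjusted p of 0.102 in the rat means (limma).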
